A study of Gallus gallus with 6 samples.

Results

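miR-193 and miR-365 are microRNAs (miRNAs, short RNAs that guide the repression of target transcripts), here measured in chicken abdominal fat. The group was taken by name: every mature miRNA of the deposited table called miR-193a, miR-193b, miR-365 or miR-365b, whichever arm or gene copy. Of 667 mature miRNAs, 5 matched: miR-193a-3p, miR-193a-5p, miR-193b-3p (gga-miR-193b-3p in the table), miR-365-1-5p and miR-365-2-5p. The group was chosen by the values of miR-193b-3p, which had stood higher with vitamin E in these same libraries. Its vitamin E values are therefore given as a description with no test, and the question put to the data is what its relatives did.

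In mouse, miR-193b and miR-365 come from one gene cluster that was studied for promoting brown fat cell differentiation, in part by repressing Runx1t1, a transcriptional corepressor. A second cluster holds miR-193a with another copy of miR-365. Birds are not known to have brown fat and lack the uncoupling protein UCP1, so abdominal fat of the chicken is white fat. A miRNA hairpin yields a 5p and a 3p strand, and usually one of them, the guide, is loaded and kept while the other is degraded. The miR-193a and miR-193b 3p strands form one family and are alike in sequence, so how reads were divided between them is uncertain.

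The libraries were small RNA profiles of abdominal fat from broilers (Gallus gallus) at day 35. Of 6 libraries, 3 came from birds given 50 IU vitamin E and 3 from controls. The birds belonged to a feeding trial of 240 female chicks, enrolled at 1 day of age, with diets at 0, 20, 50, 75 or 100 IU of the synthetic vitamin E ester DL-α-tocopherol acetate. The labels state neither the dose of the control diet nor whether each library was made from its own bird. The spread behind every p-value is that between libraries, and may be technical.

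Depth was 5028671 to 7357204 counts per library. Levels are counts scaled to a common total of 1e+06 (CPM) on library sizes scaled by TMM, which evens out differences in composition. Pearson correlations of log2 CPM over 238 tested miRNAs were 0.980 to 0.988 within vitamin E and 0.960 to 0.970 within control, so the controls lay farther apart. Control 1 had the lowest mean correlation with the other libraries (0.967). For the relatives of miR-193b-3p, and for some other strands, the fold change without control 1 is given too. Not every fold change below carries that value. The fat cell marker miRNAs chosen for a check of the tissue summed to between 90130 and 122900 CPM in every library, mostly miR-148a-3p and miR-10b-5p, and none is exclusive to fat cells. miR-143 and miR-145, also chosen, had no matching strand. In whole tissue, fewer cells of a type and less RNA per cell cannot be told apart.

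In the chicken gene table of assembly GRCg7b, the gene of miR-193b neighbours those of miR-365-1 and miR-365b, which overlap each other. The gene of miR-193a neighbours that of miR-365-2 on a separate chromosome. The gene of miR-6686 also lies near that of miR-193b, and the gene of miR-1561 near that of miR-193a. Both fall outside the group taken by name, and their levels were not read here. The 5 measured strands thus come from both clusters: miR-193b-3p and miR-365-1-5p from one, and both miR-193a arms and miR-365-2-5p from the other. Since no build is stated for the deposited counts, the gene table was used only for which genes neighbour each other.

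The group took 0.0803% to 0.147% of all counts, and control 1 held the lowest share. miR-193a-3p alone gave 69.5% to 91.9% of the group's counts. It ranked 48 in abundance among the 667 miRNAs, miR-193b-3p ranked 82, and the remaining strands were far rarer. miR-365-2-5p ranked 154, miR-193a-5p ranked 168 and miR-365-1-5p ranked 490.

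miR-193b-3p, the strand for which the group was drawn up, stood higher with vitamin E. Its level was 416, 205 and 344 CPM in vitamin E libraries 1, 2 and 3, and 130, 123 and 92.4 CPM in control libraries 1, 2 and 3. The groups did not overlap, and vitamin E 2 lay nearest to the controls. Group means were 322 ± 107 CPM for vitamin E and 115 ± 19.8 CPM for control (SD, n = 3), a ratio of 2.80. On the log2 scale the fold change was 1.48 (SE 0.34, which takes no account of how the strand was chosen). Among the 238 tested miRNAs, 7 had a larger log2 fold change, and none of these 7 was as abundant: 82 tested miRNAs, itself included, had at least its mean level. These are the values that chose it.

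**Figure D1:**
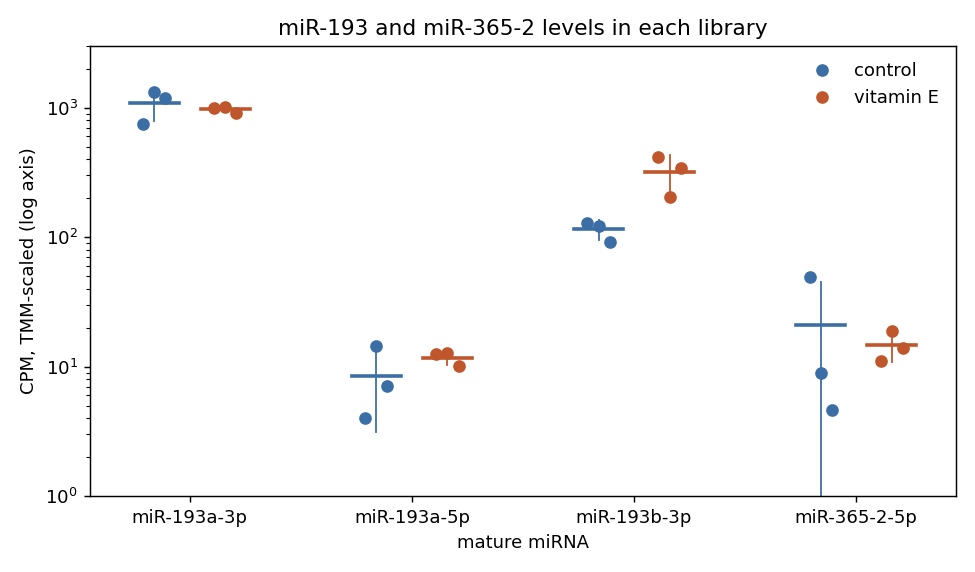
Levels of the 4 tested strands in each library, in CPM on TMM-scaled library sizes on a log axis. Points are libraries, horizontal bars group means and vertical lines 1 SD (n = 3; the line of miR-365-2-5p in control runs off the axis because its SD exceeds its mean). The groups are apart for miR-193b-3p, at 205 to 416 CPM with vitamin E and 92.4 to 130 in control, and overlap for the other strands.

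miR-193a-3p, the family member with the same name number and the dominant strand of its hairpin, did not share this pattern. It stood at 1001, 1016 and 915 CPM in vitamin E libraries 1 to 3 and at 751, 1316 and 1179 CPM in control libraries 1 to 3. The vitamin E libraries fell between the controls, with control 1 lowest and control 2 highest. The means were 977 ± 54.2 CPM for vitamin E and 1082 ± 295 CPM for control (SD, n = 3). Its log2 fold change of -0.15 (SE 0.28, 95% interval -0.78 to 0.48) did not pass (edgeR quasi-likelihood test, p adjusted by Benjamini-Hochberg over all 238 tested, 0.899). Without control 1 the log2 fold change of miR-193a-3p was -0.43 (Benjamini-Hochberg adjusted p = 0.588, edgeR quasi-likelihood).

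Because both 3p strands were counted in the same libraries, their balance needs no scaling between libraries. miR-193b-3p made up 29.4%, 16.8% and 27.3% of the reads of both strands in vitamin E libraries 1 to 3. In control libraries 1 to 3 it made up 14.7%, 8.55% and 7.26%. Vitamin E 2 and control 1 were close, with 95% Wilson intervals of 16.1% to 17.6% and 13.8% to 15.7% that cover counting error only. Group means were 24.5% ± 6.75 and 10.2% ± 3.98 (SD, n = 3). miR-193a-3p was the more abundant strand in every library, also where miR-193b-3p was highest. The share holds the value that chose miR-193b-3p, so it too is a description.

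**Figure D2:**
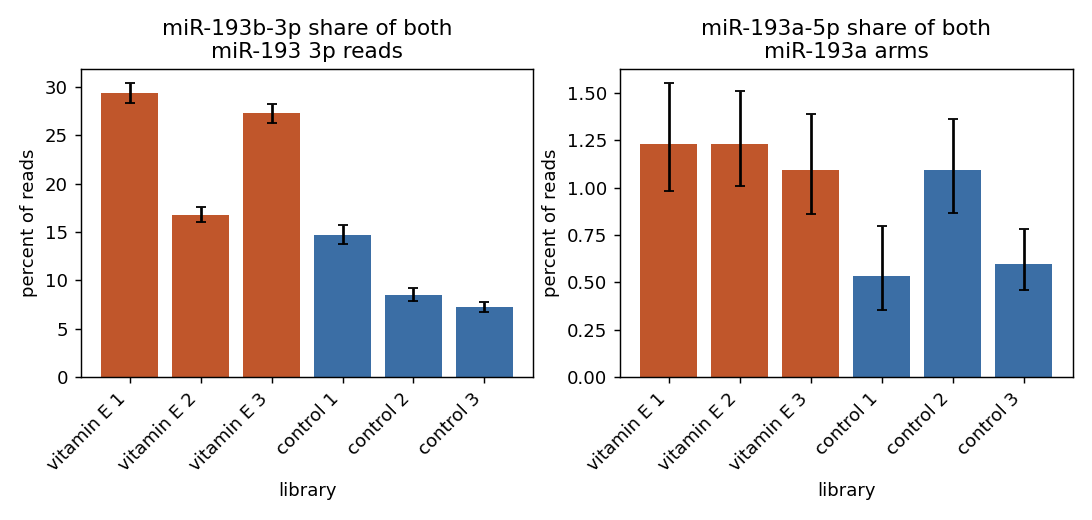
Left, the share of miR-193b-3p among reads of miR-193a-3p and miR-193b-3p in each library, in percent; right, the share of miR-193a-5p among reads of both miR-193a arms. Error bars are 95% Wilson intervals, which cover counting error only. The left share is 16.8% to 29.4% with vitamin E and 7.26% to 14.7% in control, while the right one overlaps between the groups.

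miR-193a-5p, the rare opposite arm of the miR-193a hairpin, stood at 12.5, 12.7 and 10.1 CPM in vitamin E libraries 1 to 3. In control libraries 1 to 3 it stood at 4.01, 14.5 and 7.10 CPM. As with the 3p arm, control 1 was lowest and control 2 highest, and the groups overlapped. The means were 11.8 ± 1.43 CPM and 8.52 ± 5.36 CPM (SD, n = 3). Its log2 fold change of 0.47 (SE 0.54, 95% interval -0.76 to 1.70) did not pass (Benjamini-Hochberg adjusted p = 0.842, edgeR quasi-likelihood). It was 0.076 without control 1 and 1.03 without control 2, and neither passed in the edgeR quasi-likelihood test with Benjamini-Hochberg adjustment (adjusted p = 0.938 and 0.417).

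The arms of miR-193a were steeply unequal in every library. The 5p arm made up 1.23%, 1.23% and 1.09% of the hairpin's reads in vitamin E libraries 1 to 3. In control libraries 1 to 3 it made up 0.531%, 1.09% and 0.599%. Control 2 sat with the vitamin E libraries and the other controls lay below them, giving 1.18% ± 0.0808 against 0.740% ± 0.305 (SD, n = 3). The controls at 0.531% and 0.599% rest on 23 and 54 reads of the 5p arm, with Wilson intervals of 0.354% to 0.796% and 0.459% to 0.781%.

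Other hairpins give the setting for these arm values. Both arms were tested for 52 hairpins, and their log2 fold changes had the same sign in 29 and opposite signs in 23. The median absolute difference between arms was 0.404 on the log2 scale, and for miR-193a the 5p arm lay 0.62 above the 3p arm. Over log2 CPM of the 6 libraries, the correlation between arms had a median of 0.225 and ran from -0.778 to 0.961. That of miR-193a was 0.666, a value reached or exceeded by 13 of the 52 hairpins, itself included.

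miR-365-2-5p, from the gene beside miR-193a, varied most among the group's tested strands. It stood at 11.2, 18.8 and 14.0 CPM in vitamin E libraries 1 to 3 and at 49.0, 8.91 and 4.61 CPM in control libraries 1 to 3. Control 1 was the highest of all libraries and the other controls were the lowest, so the vitamin E libraries lay inside the range of control. The means were 14.6 ± 3.85 CPM and 20.8 ± 24.5 CPM (SD, n = 3). Its log2 fold change of -0.51 (SE 0.81, 95% interval -2.36 to 1.35) did not pass (Benjamini-Hochberg adjusted p = 0.894, edgeR quasi-likelihood). Without control 1 it turned to 1.07, again without passing (Benjamini-Hochberg adjusted p = 0.540, edgeR quasi-likelihood). Within control its highest and lowest libraries differed 10.6-fold, and its coefficient of variation there was 117%, a value reached or exceeded by 9 of the 238 tested miRNAs, itself included. Both rest on control 1: between control 2 and control 3 the difference was 1.93-fold and the coefficient of variation 45%.

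miR-365-1-5p, from the gene beside miR-193b, was barely detected. It had 1, 0 and 1 counts in vitamin E libraries 1 to 3 and 1, 0 and 0 counts in control libraries 1 to 3. With a count of 0, up to 3 counts are possible, equal to 0.395 to 0.594 CPM across libraries. It did not enter the test, and whether it moved with miR-193b-3p was not detectable at this depth. No other strand of the miR-193b and miR-365 hairpins was named among the 667 mature miRNAs. In particular, no 3p strand of miR-365 was named. The miR-365 values here are therefore those of 5p strands only, and the level of its 3p strand is not known. Within the group taken by name, the miR-193b cluster is thus represented by 1 strand with usable counts.

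Spread among libraries differed between the strands. For miR-193a-3p the coefficient of variation was 5.55% with vitamin E and 27.3% in control, for miR-193a-5p 12.2% and 62.9%, and for miR-365-2-5p 26.3% and 117%, the last resting on control 1. miR-193b-3p went the other way, with 33.3% and 17.3%. Over the tested miRNAs the medians were 22.1% and 34.7%, and 175 of 238 varied more in control. The 3 members that did so are thus on the common side.

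**Figure D3:**
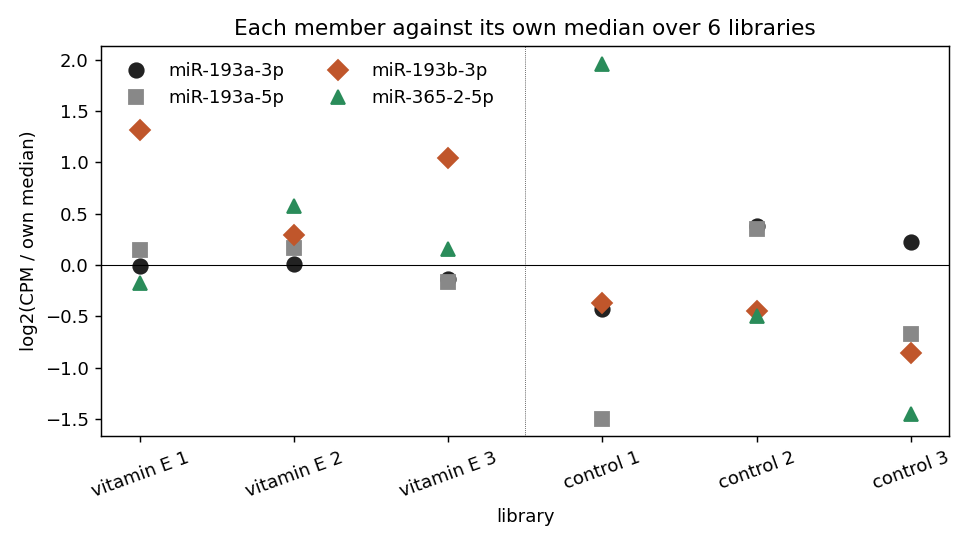
Each tested strand relative to its own median over the 6 libraries, as log2 of the ratio of CPM values; the dotted line parts vitamin E from control libraries. In control 1 both miR-193a arms lie at their lowest (751 and 4.01 CPM) and miR-365-2-5p at its highest (49.0 CPM). miR-193b-3p lies above 0 in all 3 vitamin E libraries and below 0 in all 3 controls. That must hold for any strand whose groups do not overlap, the trait for which miR-193b-3p was chosen.

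Control 1 held the lowest levels of both miR-193a arms and the highest of miR-365-2-5p, their neighbour. Correlations were computed over log2 CPM of the 6 libraries for 3 pairs that leave out miR-193b-3p, with two-sided exact permutation tests. The pairs were chosen after values had been seen, so the p-values, adjusted or not, are a description only. The permutations ran over all 6 libraries without regard to group. For miR-193a-3p with miR-365-2-5p Pearson's r was -0.851 (exact permutation p = 0.0389, Benjamini-Hochberg adjusted over the 3 pairs 0.117). Spearman's rho for this pair was -0.771 (exact permutation p = 0.103, adjusted 0.262). Without the 2 libraries farthest from the median of miR-193a-3p, control 1 and control 2, r was -0.807 over 4 libraries. Such trimming narrows the range of miR-193a-3p, so this value cannot show what the negative relation rested on. No pair passed after adjustment.

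For the miR-193a arms r was 0.666 (exact permutation p = 0.162, adjusted 0.243) and rho 0.657 (exact permutation p = 0.175, adjusted 0.262). Without control 1 and control 2, the farthest from the median of miR-193a-3p, r was -0.662 over 4 libraries. Leaving out the farthest libraries narrows the range of miR-193a-3p, so this value cannot show what the positive relation rested on. For miR-193a-5p with miR-365-2-5p r was -0.490 (exact permutation p = 0.335, adjusted 0.335) and rho -0.257 (exact permutation p = 0.658, adjusted 0.658). Without control 1 and control 3, the farthest from the median of miR-193a-5p, r was -0.469 over 4 libraries, with the same limit.

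miR-193b-3p itself had an r of -0.30 with miR-193a-3p, 0.43 with miR-193a-5p and 0.14 with miR-365-2-5p over the 6 libraries, given as a description. The miRNAs outside the group with the most similar profile were miR-124a-3p (r = 0.929), miR-9-5p (0.916), miR-30a-3p (0.904), miR-34c-5p (0.890) and miR-124c-5p (0.870). Of these, miR-124a-3p was rare, at 8.93 ± 0.768 against 3.26 ± 0.338 CPM (SD, n = 3). miR-124c-5p was rarer still, at 3.40 ± 0.978 against 0.868 ± 0.320 CPM. All 5 had groups that did not overlap, vitamin E higher, a feature that a likeness to miR-193b-3p favours. Over all tested miRNAs the groups did not overlap for 13.9%, in either direction. Fold changes of the 5 most similar differed in size, from 0.24 on the log2 scale for miR-30a-3p to 2.24 for miR-9-5p. miR-30a-3p, a strand of the miR-30 family, stood at 699 ± 32.4 against 590 ± 23.0 CPM (SD, n = 3). miR-9 and miR-124 are best known from neurons. No list of nervous tissue markers was read here, and the part of such tissue was not tested. With libraries scaled by their totals alone, 3 of the 5 were again among the 5 most similar.

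**Figure D4:**
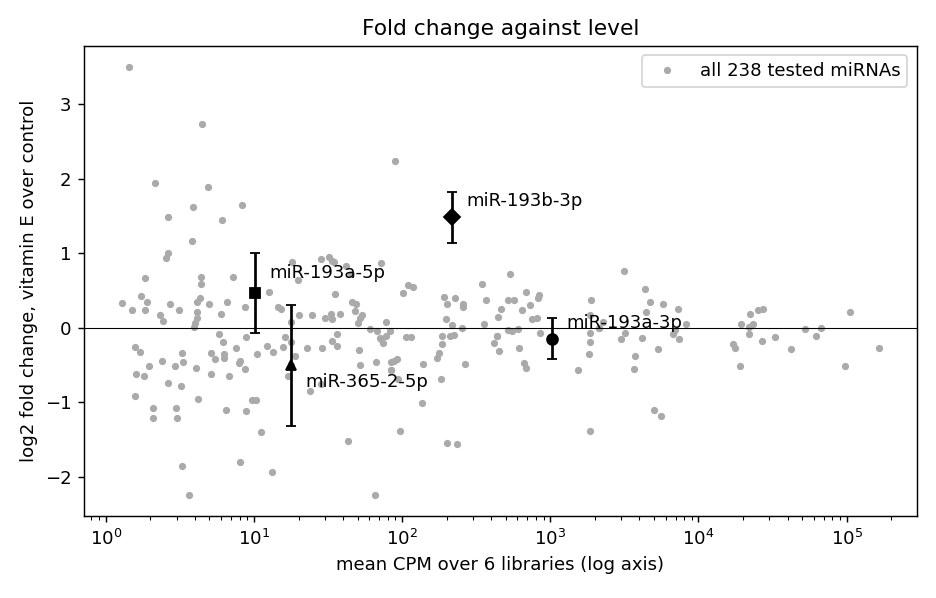
Log2 fold change of vitamin E over control against the mean level in CPM (log axis) for the 238 tested miRNAs (grey) and the 4 tested strands of the group (black, bars are SE). miR-193b-3p, chosen by these values, lies at 1.48, and 7 less abundant miRNAs lie higher. miR-193a-3p at -0.15, miR-193a-5p at 0.47 and miR-365-2-5p at -0.51 lie among the other miRNAs.

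Of the 3 tested relatives of miR-193b-3p, 1 had a log2 fold change above 0 and 2 below. With edgeR (quasi-likelihood, Benjamini-Hochberg) 0 of them passed at 0.05, where 0.420% of all tested miRNAs did. At an unadjusted p under 0.05 there were 0, against 7.56% of all tested, and with DESeq2 0 passed after adjustment. The groups overlapped for all 3, while they did not overlap for 13.9% of all tested miRNAs. With 3 strands these shares allow no reading beyond each strand's own interval.

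Markers of other cell types were read beside these values. Liver miRNAs, of which miR-122-5p was the 1 tested of 2 strands listed, summed to 5.24 to 7.32 CPM with vitamin E and 12.4 to 20.8 CPM in control, and the groups did not overlap. The log2 fold change of miR-122-5p, -1.40 (SE 0.43), did not pass in edgeR (quasi-likelihood, Benjamini-Hochberg adjusted p = 0.325) and passed with DESeq2 (-1.46, Benjamini-Hochberg adjusted p = 0.0235). Erythroid miRNAs, with 3 of 3 matching strands tested, summed to 3099 to 5295 CPM against 1406 to 3283 CPM, mostly miR-451, and the groups overlapped. Of the 3, 1 had a log2 fold change above 0 (miR-451) and 2 below (miR-144-3p and miR-144-5p). miR-486, also on the erythroid list, had no matching strand. miR-144-5p was highest in control 1, at 172 CPM. Striated muscle miRNAs, with 5 of 9 listed strands tested, summed to 300.5 to 583 CPM against 276 to 518 CPM, mostly miR-133a-3p. All 5 had a log2 fold change above 0, the same side as miR-193b-3p, with a median of 0.89, though miR-133a-3p changed sides with scaling. Of all 238 tested miRNAs, 109 lay above 0. The miR-133 strands share a family, so the 5 are not separate observations. With edgeR (quasi-likelihood, Benjamini-Hochberg) 0 of the 5 passed, with 1 at an unadjusted p under 0.05, where 7.56% of all tested miRNAs were. With DESeq2 0 passed, with 2 at an unadjusted p under 0.05, where 24 of all 238 tested were.

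miR-133c-3p stood at 23.5 ± 4.98 against 12.7 ± 2.04 CPM (SD, n = 3). The groups did not overlap for it (log2 fold change 0.89) or for miR-133b (1.63, and 1.16 without control 1). Over all tested miRNAs they did not overlap for 13.9%. They overlapped for miR-1a-3p (1.01), miR-499-5p (0.45, and 0.10 without control 3) and miR-133a-3p (0.05, but -0.0012 with median-of-ratios factors and -0.03 with upper-quartile factors). miR-206, a skeletal muscle miRNA, had 3 counts over all libraries. The part of these other cell types in the result for miR-193b-3p was not tested.

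The wider set of miRNAs studied in mammalian brown fat lay to both sides of 0. The brown fat lists took miRNAs by name without regard to arm. Both arms therefore count, including an opposite arm that may not itself have been studied there. Of 17 tested strands on the list of promoting miRNAs, 8 had a log2 fold change above 0 and 9 below. Their median log2 fold change was -0.09, beside -0.07 over all 238 tested miRNAs. Leaving out the miR-193 and miR-365 strands, 13 were left, 6 above and 7 below 0, with the same median of -0.09. Of these 13, 0 passed in edgeR's quasi-likelihood test, 0 had an unadjusted p under 0.05 (7.56% of all tested did) and 0 passed with DESeq2. The split of the 17 depended on the scale: it was 9 above and 8 below with library totals alone, 7 and 10 with median-of-ratios or upper-quartile factors, and 12 and 5 in both limma fits on log2 TPM.

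miR-26a-5p, the most abundant strand on the promoting list, stood at 157903, 148123 and 140698 CPM in vitamin E libraries 1 to 3. In control libraries 1 to 3 it stood at 206326, 179464 and 155047 CPM. The groups overlapped at control 3. Its log2 fold change was -0.28 (SE 0.18; Benjamini-Hochberg adjusted p = 0.738, edgeR quasi-likelihood). Among strands on the promoting list below 0, miR-30c-2-3p had the smallest p. It is a 3p arm of miR-30c and entered the list by the name of that miRNA. Levels of miR-30c-2-3p were 223, 226 and 221 CPM with vitamin E and 430, 256 and 249 CPM in control. The groups did not overlap for it, nor for 13.9% of all tested miRNAs. Its log2 fold change was -0.48 (SE 0.30, Benjamini-Hochberg adjusted p = 0.721, edgeR quasi-likelihood). Control 1 stood far above the other libraries, and without it the log2 fold change was -0.26.

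Of 15 tested strands on the list of miRNAs studied as restraining brown fat, 8 had a log2 fold change above 0 and 7 below, with a median of 0.05. In edgeR's quasi-likelihood test 0 passed, with 1 at an unadjusted p under 0.05, where 7.56% of all tested miRNAs were. With DESeq2 0 passed, with 2 at an unadjusted p under 0.05, where 24 of all 238 tested were. With median-of-ratios factors the counts were 7 and 8, and with upper-quartile factors 6 and 9. miR-199-3p, its most abundant strand, had a log2 fold change of -0.12 (SE 0.24, and 0.095 without control 3; Benjamini-Hochberg adjusted p = 0.899, edgeR quasi-likelihood). miR-133b, a muscle miRNA whose mammalian counterpart represses Prdm16, a regulator of brown fat identity, had the smallest p on the higher side.

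miR-133b stood at 3.89, 6.75 and 7.0 CPM with vitamin E and at 0.697, 2.18 and 2.76 CPM in control, with the groups apart. Its log2 fold change was 1.63 (SE 0.58; Benjamini-Hochberg adjusted p = 0.474, edgeR quasi-likelihood), and since it shares a family with the far more abundant miR-133a its reads are uncertain. On the lower side miR-125b-5p had the smallest p, at 14361, 17954 and 14785 CPM with vitamin E and 31681, 15935 and 19766 CPM in control. Its groups overlapped, and its log2 fold change was -0.52 (SE 0.29; Benjamini-Hochberg adjusted p = 0.692, edgeR quasi-likelihood). Without control 1, its highest library, it was -0.27.

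**Figure D5:**
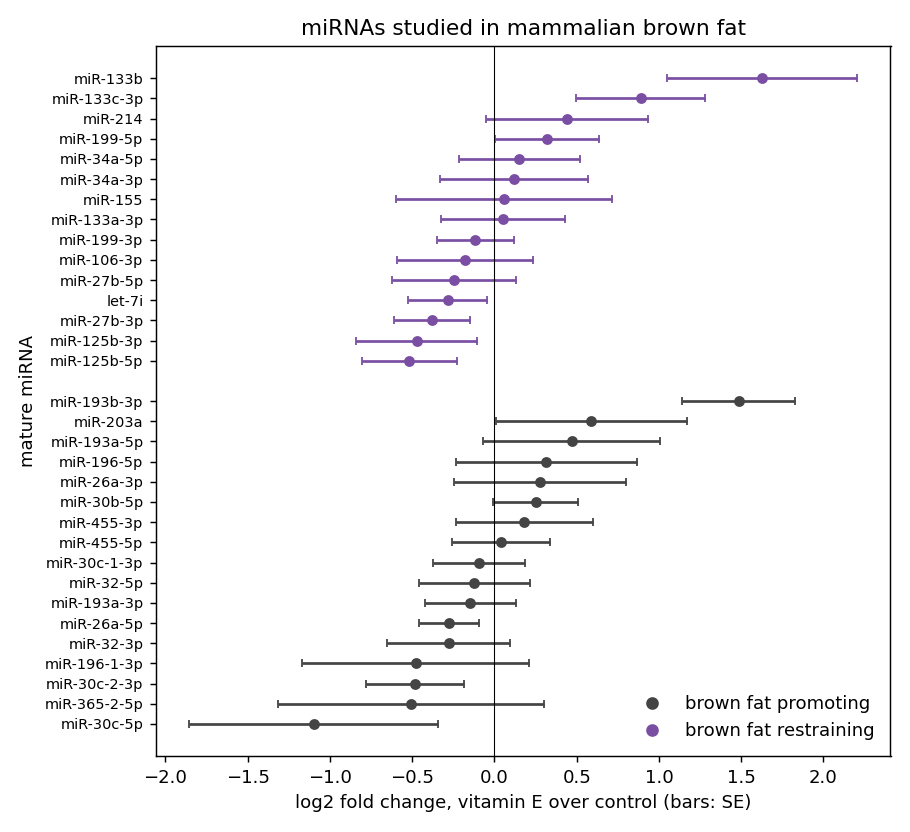
Log2 fold change of vitamin E over control, with its SE, for the 17 tested strands of miRNAs studied as promoting brown fat (grey, including the 4 tested strands of miR-193 and miR-365-2) and the 15 studied as restraining it (purple). Both lists spread to either side of 0, from -1.10 for miR-30c-5p (0.48 without control 1) to 1.48 for miR-193b-3p in the first and from -0.52 for miR-125b-5p to 1.63 for miR-133b in the second.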

How the data were processed

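Per the file headers, the authors gave a read count for each mature miRNA and library, and these are whole numbers. Their deposited TPM is the count over its library total times 1e+06, without any length term (largest deviation 4.07e-10). No source used here names the aligner, counting rule, miRNA reference or build. Counts were fitted with edgeR 4.0.16 in R 4.3.3: TMM factors, filterByExpr by group (minimum count 10, minimum total 15), the robust quasi-likelihood F test and Benjamini-Hochberg adjustment over 238 of 667 miRNAs at 0.05. Alternatives used DESeq2 1.42.0 on the same filtered counts and limma 3.58.1 on log2(TPM + 1) and log2(TPM + 0.1). Log2 CPM for correlations used a prior count of 2. Gene neighbours lie within 20 kb in GRCg7b. All pairs of libraries differed beyond sampling noise (chi-square per degree of freedom at least 405). The fit was also run on simulated counts. These had large fold changes and less spread between libraries than the data, so that run does not measure power or error here.

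The members and lists were chosen with earlier results of these data known. A list name matched a strand by its name without arm and copy number, and miR-203 matched miR-203a. The strands named are all members, from each brown fat list the most abundant strand and that with the smallest p in each direction (on the promoting list miR-193b-3p above 0 is left as a description), and the 5 most like miR-193b-3p. The pairs correlated were chosen after values had been seen, and strands named as cell type markers follow the marker lists. Intervals have a confidence level of 95%.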

Additional observations from a re-analysis of the deposited data

How the results depend on the processing

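Over 15 alternatives the log2 fold change of miR-193b-3p ran from 1.27 to 1.70 (1.27 to 1.70 with 1 library left out). The same libraries chose this strand, so its range is a description and lends the difference no support. The log2 fold change of miR-193a-5p ran from 0.0757 to 1.03. miR-193a-3p kept its sign except with limma on log2(TPM + 1) and log2(TPM + 0.1), at 0.00090 and 0.00097. miR-365-2-5p turned to 0.23 and 0.28 in those limma fits and to 0.27 with the replicate number as a block, and ran from -1.05 to 1.07 with 1 library left out. None of miR-193a-3p, miR-193a-5p and miR-365-2-5p passed in any alternative. Among other strands named, miR-30c-5p turned from -1.10 to 0.48 without control 1 (-1.62 to 0.48 with 1 library left out). miR-199-3p turned from -0.12 to 0.0268 in both limma fits and to 0.0953 without control 3 (-0.298 to 0.0953 with 1 library left out). miR-133a-3p turned from 0.05 to -0.00117 with median-of-ratios factors and with DESeq2, -0.0323 with upper-quartile factors, -0.0593 with the 10 CPM filter, -0.311 without vitamin E 2 and -0.173 without control 2 (-0.311 to 0.274 with 1 library left out). These strands were run through the settings after values had been seen, as was the spread of miR-365-2-5p without control 1.

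Over all miRNAs 1 passed (1 higher, 0 lower). It was miR-9-5p (edgeR quasi-likelihood, Benjamini-Hochberg adjusted p = 0.0396), which is not a member of the group. Upper-quartile factors gave 0 (0 higher; edgeR quasi-likelihood, 18 at an unadjusted p under 0.05). No filter gave 8 (4 higher, 4 lower), DESeq2 7 (5 higher, 2 lower), limma on log2(TPM + 1) 3 (3 higher) and the replicate block 5 (4 higher, 1 lower). Leaving out 1 library gave 0 to 1 (0 to 1 higher). The promoting list had 5 strands lower and 12 higher in both limma fits. The median log2 fold change over miRNAs moved by 0.107 with totals alone and by 0.129 and 0.132 in the limma fits. The labels give both groups numbers 1 to 3, yet deviations of same-numbered libraries from their group means correlated at -0.16, 0.046 and -0.02, so the number was not taken as a pairing. The cause of these differences was not tested. Depth limits miR-365-1-5p, with at most 1 count in a library.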
